A study of Mus musculus with 36 samples.

Results

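Mouse skin and skin wounds were examined here through 53 genes of mature skeletal muscle. These are the heavy and light chains of myosin, the actin, troponin, tropomyosin and nebulin of the thin filament, and titin and the Z disc. The others are the membrane system that releases and recovers calcium, the enzymes that supply energy, and a small set that controls muscle mass or answers stress on the fibre. The members were chosen by symbol from a list of genes named for these roles, and all 53 were found among the 55414 genes counted in each library and passed the filter on low counts. Messenger RNA libraries made from the total RNA of 36 skin samples were sequenced. There were 5, 6 and 6 libraries of wounds labelled PD at days 2, 4 and 12 after injury, and 5, 5 and 6 libraries of wounds labelled P at the same days. The remaining 3 libraries were of unwounded skin, labelled day 0. The series title names the removal of senescent cells with high p21 as its subject. The labels do not spell out P and PD, and they give neither genotype, strain, age and sex nor the agent used, so both names are used as given. They do not say whether libraries came from separate animals, so the p-values below measure the spread between libraries.

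A muscle fibre shortens when myosin heads pull on actin, after calcium set free from the sarcoplasmic reticulum has moved troponin and tropomyosin aside. Adult fibres are of fast and slow kinds, each with its own myosin heavy chain, light chains and troponin subunits, and the fastest fibres of the mouse carry the heavy chain of Myh4, with Myh1, Myh2 and Myh7 marking progressively slower ones. Mouse skin is underlain by the panniculus carnosus, a thin sheet of mainly fast striated muscle that can be taken with the skin and can be cut by a full wound. The labels do not say which layers were sampled.

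Sequence of 3 promoters is shown for the genes whose contrast runs through the results: the fast troponin I gene Tnni2, its slow partner Tnni1, and Ankrd1, a titin-binding stress protein gene. Each window is the 250 bases before the annotated start in GRCm39, 5′ to 3′ on the strand of the gene, and overlaps no annotated exon. Capitals mark every match to the E-box CANNTG, the core letters bound by the myogenic factors of the MyoD family. The Tnni2 window lies at chr7:141995295-141995544 on the plus strand and holds 1 E-box. The Tnni1 window at chr1:135726890-135727139 on the plus strand holds 4, and the Ankrd1 window at chr19:36097507-36097756 on the minus strand holds 4.
Tnni2: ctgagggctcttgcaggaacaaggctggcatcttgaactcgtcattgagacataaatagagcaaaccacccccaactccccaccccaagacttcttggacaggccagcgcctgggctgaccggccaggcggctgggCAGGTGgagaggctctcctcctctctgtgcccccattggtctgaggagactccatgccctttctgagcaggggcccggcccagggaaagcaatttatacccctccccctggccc
Tnni1: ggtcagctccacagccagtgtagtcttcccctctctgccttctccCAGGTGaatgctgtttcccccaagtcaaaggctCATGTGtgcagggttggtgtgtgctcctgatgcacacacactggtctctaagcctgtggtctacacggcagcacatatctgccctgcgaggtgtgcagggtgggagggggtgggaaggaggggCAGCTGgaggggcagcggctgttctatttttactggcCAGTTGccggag
Ankrd1: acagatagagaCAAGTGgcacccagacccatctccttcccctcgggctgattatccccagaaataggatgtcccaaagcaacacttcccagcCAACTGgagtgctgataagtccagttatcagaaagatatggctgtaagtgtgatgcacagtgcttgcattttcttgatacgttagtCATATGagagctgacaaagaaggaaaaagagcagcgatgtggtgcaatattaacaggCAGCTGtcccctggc
These letters are common: 64.8% of 21770 such windows of protein-coding genes hold at least 1 E-box on either strand, and 43 of the 53 members do. A second motif searched on both strands, MCAT (CATTCC), was in 11 members' windows and in 12.1% of all windows. The MEF2 pattern was in 9 members' windows and in 2.8% of all, and the CArG box in 3 and in 1.4%. None of these 3 motifs occurred in the windows shown. A match describes the letters only.

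In unwounded skin the members together took 10.6%, 12.7% and 15.2% of all counts in the 3 libraries. The wounds held less in nearly all libraries. At day 2 the PD wounds held 2.78%, 4.69%, 5.03%, 5.90% and 8.33%, and the P wounds 2.65%, 4.58%, 6.66%, 6.91% and 7.07%. At day 4 the PD wounds ran from 2.36% over a median of 3.98% to 10.6%, and the P wounds held 1.03%, 2.38%, 2.41%, 2.62% and 7.67%. At day 12 the PD wounds ran from 1.04% over a median of 5.0% to 13%, and the P wounds from 0.514% over 1.99% to 6.81%. PD and P wounds overlapped at every day. All P wounds and all day 2 PD wounds lay below all unwounded libraries. Of the later PD wounds, replicate 3 of day 4 and replicate 3 of day 12 reached into the unwounded range. In such bulk samples a smaller amount of muscle and less of each RNA per fibre cannot be told apart.

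**Figure D1:**
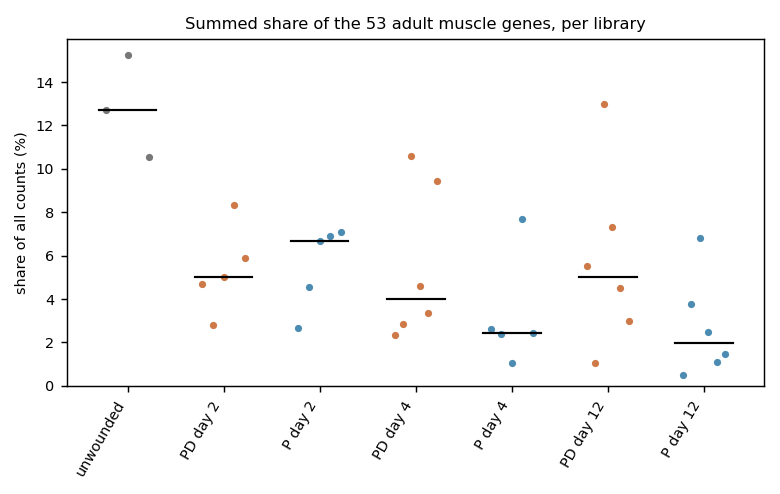
Share of all counts (percent, y axis) taken by the 53 adult muscle genes in each of the 36 libraries, by group (x axis), with 1 point per library and a bar at the group median. The unwounded libraries sit between 10.6% and 15.2%, and the PD and P wounds of each day overlap.

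The source of these RNAs was checked on marker lists. The heart muscle list (Myh6, Nppa, Tnni3, Ryr2 and Myl7) summed to 2.78 to 6.87 CPM, counts scaled by library size and TMM factor, over all libraries. Tnni3 alone had 1.76 to 6.70 CPM. Myh6 had 0, 0 and 2.03 CPM in unwounded skin, and at most 0.847 CPM in wounds. Nppa was at 0 in all libraries of 4 of the 7 groups and never above 0.212 CPM. Skeletal actin Acta1 had 16982, 21191 and 23769.8 CPM in unwounded skin. Markers of other cells moved with the wounds. All 5 neutrophil and macrophage markers rose at day 2 in both PD and P wounds. Their sums were 2251 to 4141 CPM in PD wounds and 4311 to 7636 CPM in P wounds, against 17.6 to 36 CPM in unwounded skin. At day 12 all 5 hair follicle markers and 3 of 5 fibroblast markers rose in both. The hair follicle sum was 343 to 7797 CPM in PD wounds and 367 to 6967 CPM in P wounds, against 4.15 to 6.81 CPM in unwounded skin. In P wounds of day 4 the library with the smallest muscle share, replicate 3, was also the one with a hair follicle sum of 6008 CPM, against 5.98 to 13.5 CPM in the others of its group. The part of these shifts in the muscle values was not tested.

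Each member was then compared between wounds and unwounded skin with edgeR's quasi-likelihood test over all 20657 genes that passed the filter, with adjusted p under 0.05 as the threshold for a call. The 6 comparisons share the 3 unwounded libraries and so are not independent. At day 2, 3 members rose and 6 fell in PD wounds, where 39.4% of all genes tested were called (21% higher and 18.4% lower). In P wounds of day 2, 3 rose and 5 fell, against 41.3% of all genes (22.3% and 19%). At day 4, 4 rose and 8 fell in PD wounds, against 47.1% of all genes (25.4% and 21.8%). In P wounds of day 4, 1 rose and 34 fell, against 43.3% of all genes (23.6% and 19.7%). At day 12, 2 rose and 16 fell in PD wounds, against 44.9% of all genes (24.2% and 20.7%). In P wounds of day 12, 1 rose and 41 fell, against 43.7% of all genes (23.7% and 20%). The median log2 change of the members was -1.19, -1.08 and -1.24 in PD wounds and -1.09, -1.82 and -2.40 in P wounds at days 2, 4 and 12, while the median over all genes tested stayed between 0.02 and 0.10. Members with every wound library below every unwounded one numbered 26, 10 and 10 in PD wounds and 26, 29 and 37 in P wounds at the same days. The share of all genes fully apart in this way is not given, so these numbers do not show whether the members are unusual. Unwounded replicate 2 stands apart in the slow fibre genes described further on. Without it, the counts of falls changed to 2 in PD wounds at day 4, 2 in PD wounds at day 12 and 8 in P wounds at day 4, and the counts of rises at day 2 to 9 in PD wounds and 9 in P wounds. Falls in PD wounds numbered 16 at day 4 without PD day 4 replicate 3 and 26 at day 12 without PD day 12 replicate 3. The day 2 falls depended on the method too. limma-voom gave 31 in PD wounds and 19 in P wounds, and a fit of the compared groups alone 27 and 26. limma-voom also gave 26 and 34 falls in PD wounds at days 4 and 12. The shares of all genes above belong to the main fit. None are given for these other methods, so the counts do not show whether the members moved more than all genes. P wounds at day 12 gave 30 or more falls whichever library was left out.

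**Figure D2:**
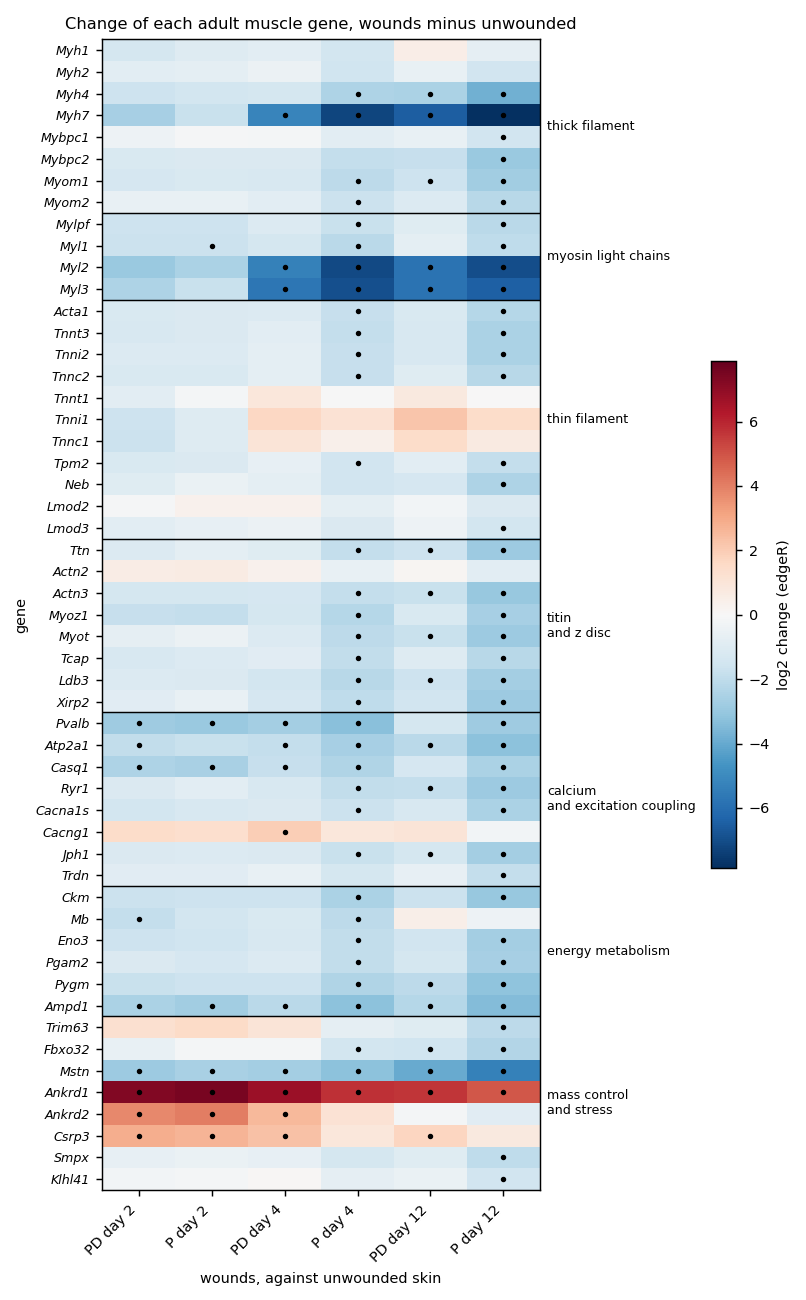
Log2 change of each of the 53 members (rows, grouped by role) in PD and P wounds of days 2, 4 and 12 against unwounded skin (columns), as a colour scale from lower (blue) to higher (red), with a dot where the edgeR adjusted p was under 0.05. Ankrd1 rose in all 6 columns, and the P column of day 12 carries 42 dots.

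Among the thick filament genes no member was called at day 2, 1 of 8 fell in PD wounds and 4 of 8 in P wounds at day 4, and 3 and 6 of 8 fell at day 12. The only fall in PD wounds at day 4 was that of Myh7. The falls in P wounds at day 4 and in PD and P wounds at day 12 include it too. All these falls of Myh7 rest on unwounded replicate 2. Myh4, the heavy chain of the fastest fibres, had 2992, 5556, 5728, 6528 and 10120.5 CPM in PD wounds and 3054, 6106, 7868, 8724 and 10254 CPM in P wounds at day 2. In unwounded skin the 3 libraries had 13728, 17621 and 27243 CPM. At day 12 it ran from 376 over a median of 2654 to 7839 CPM in PD wounds and from 141 over 869.7 to 4178 CPM in P wounds. Every wound library of both days lay below every unwounded one. The day 2 differences, log2 -1.66 in PD wounds and -1.44 in P wounds, were not called (edgeR adjusted p = 0.109 and 0.164). At day 12 Myh4 fell by 2.52 on the log2 scale in PD wounds (SE 0.78, edgeR adjusted p = 0.0101, lost without unwounded replicate 2). The fall in P wounds was 3.75 (SE 0.80, edgeR adjusted p = 0.00038). Myh1, the heavy chain of the neighbouring fast fibre type, had 964 to 12446 CPM with a median of 3717 in PD wounds and 633 to 4426 CPM with a median of 1402 in P wounds at day 12. Unwounded skin gave 2228, 3674 and 4032 CPM. Its day 12 differences from unwounded skin, log2 0.52 in PD wounds and -0.73 in P wounds, were not called (edgeR adjusted p = 0.552 and 0.374). Mybpc2, the fast isoform of myosin binding protein C, fell in P wounds of day 12 (log2 -2.93, SE 0.80, edgeR adjusted p = 0.00375) and was at -1.80 in PD wounds, not called.

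The balance between these heavy chains differed with time after injury. Expressed as the log2 ratio of Myh4 to Myh1 within each library, the mean was 2.55 ± 0.26 in unwounded skin (SD, n = 3). It was 2.26 ± 0.38 in PD wounds and 2.18 ± 0.40 in P wounds at day 2, and 1.91 ± 0.43 and 1.55 ± 0.57 at day 4 (SD, n = 5 or 6). The day 12 means were -0.66 ± 0.52 and -0.91 ± 0.78 (SD, n = 6 each). All 12 wounds of day 12, between -2.16 and 0.04, lay below all earlier libraries, of which the lowest was at 0.54. Myh1 rose in PD wounds at day 12 over day 2 (log2 1.92, SE 0.61, edgeR adjusted p = 0.013, lost without PD day 12 replicate 3). Myh4 fell in P wounds over the same days (log2 -2.32, SE 0.71, edgeR adjusted p = 0.0098). Per kilobase, Myh4 made up 84.0% to 85.5% of the 6 heavy chains compared in unwounded skin, where Myh1 made up 9.81% to 13.8%. At day 12 Myh4 made up 26.3% to 49.9% in PD wounds and 17.6% to 45.7% in P wounds, and Myh1 38.5% to 53.1% and 37.0% to 62.3%. Myh8, the perinatal heavy chain of regenerating and newborn muscle, made up 5.37% to 18.9% in PD wounds and 5.84% to 25.8% in P wounds at day 12, against 0.212% to 0.322% in unwounded skin. These genes lie side by side on chromosome 11, Myh2 at 67061838-67088989, Myh1 at 67089132-67116631 and Myh4 at 67128336-67151274 in GRCm39. They are near-identical over long stretches, so the split of reads between them is uncertain to the extent that the authors' counting could not place them.

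**Figure D3:**
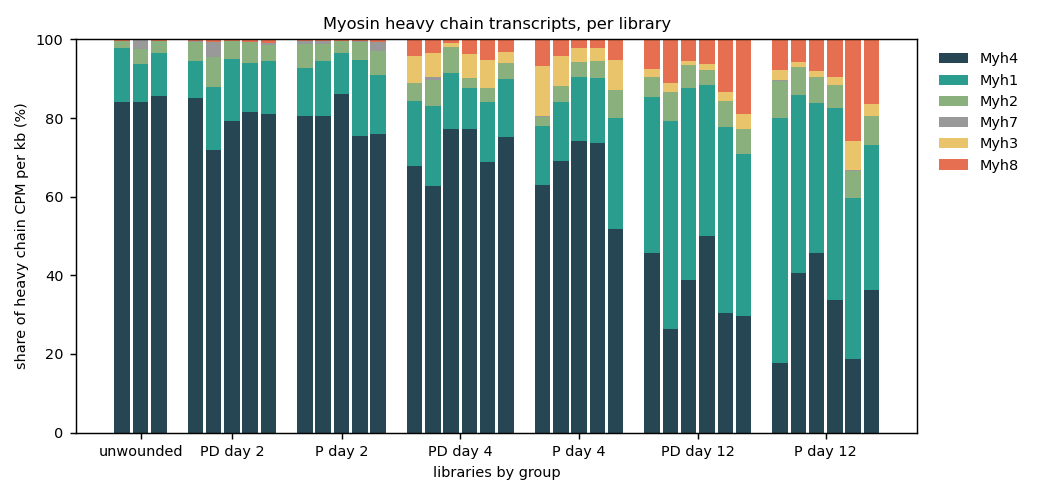
Share of the summed CPM per kilobase of 6 myosin heavy chain genes (percent, y axis) in each of the 36 libraries, 1 bar per library, ordered by group. Myh4 makes up more than Myh1 in every library before day 12, and at day 12 Myh1 makes up between 37.0% and 62.3%.

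The 4 myosin light chain genes divide into a fast pair, Mylpf and Myl1, and a slow and heart pair, Myl2 and Myl3. Of the 4, none in PD wounds and 1 in P wounds fell at day 2, 2 and 4 at day 4, and 2 and 4 at day 12. The 2 falls in PD wounds were Myl2 and Myl3 at day 4 and again at day 12, and the falls in P wounds at days 4 and 12 include both. Falls of Myl2 and Myl3 against unwounded skin rest on unwounded replicate 2. Without that library their changes were positive at every day in PD and P wounds. Myl1, the alkali light chain of fast fibres, had 580.5, 999, 1090.3, 1211 and 2027 CPM in PD wounds and 556, 779, 1326, 1568 and 1676 CPM in P wounds at day 2. The values in unwounded skin were 3229, 3759 and 4704 CPM. All wounds of day 2 lay below unwounded skin, with a log2 change of -1.72 in both (SE 0.70). The P value passed the threshold (edgeR adjusted p = 0.0483, in 9 of 18 alternatives) and the PD value did not (0.0504). Mylpf, the regulatory light chain of fast fibres, fell in P wounds at day 4 (log2 -1.74, edgeR adjusted p = 0.0403) and day 12 (-2.12, edgeR adjusted p = 0.00963) and was at -1.08 and -0.93 in PD wounds, not called.

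Of the 11 thin filament genes none passed the threshold at day 2 or, in PD wounds, at any day, while 5 fell in P wounds at day 4 and 7 at day 12. Per kilobase Acta1, skeletal alpha actin, was the most abundant member in unwounded skin, with 12530 ± 2079 CPM per kb (SD, n = 3). It was ahead of the calcium pump Atp2a1 (mean 5238 CPM per kb) and of Mylpf (4812), Tnni2 (4592), Tnnc2 (4390) and Tnnt3 (4161). Acta1 had 1658 to 20552 CPM with a median of 8055 in PD wounds and 789.6 to 11103 CPM with a median of 3159 in P wounds at day 12. It was at 16982, 21191 and 23769.8 CPM in unwounded skin. The highest PD library overlapped unwounded skin and no P library did. Acta1 fell in P wounds (log2 -2.24, SE 0.62, edgeR adjusted p = 0.00439) and was at -1.20 in PD wounds (SE 0.63, edgeR adjusted p = 0.117). Tnnt3, the fast troponin T that anchors the complex, fell in P wounds of day 12 (log2 -2.52, edgeR adjusted p = 0.00479). So did Tpm2, beta tropomyosin (-1.90, edgeR adjusted p = 0.0094), and Neb, the ruler-like nebulin (-2.40, edgeR adjusted p = 0.00165). In PD wounds of day 12 these were at -1.25, -0.82 and -1.31, none of them called.

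Of the 8 titin and Z disc genes none passed the threshold at day 2. At day 4 none passed it in PD wounds and 7 fell in P wounds, and at day 12, 4 fell in PD wounds and 7 in P wounds. Ttn, the giant elastic titin, had 217 to 3031 CPM with a median of 1081 in PD wounds and 153 to 1195 CPM with a median of 386 in P wounds at day 12. The unwounded libraries had 2689.6, 3562 and 5177 CPM. It fell by 1.61 in PD wounds (SE 0.62, edgeR adjusted p = 0.033, in 11 of 19 alternatives) and by 2.84 in P wounds (SE 0.62, edgeR adjusted p = 0.000491, in 19 of 19) on the log2 scale. Actn3, the alpha actinin of fast fibres, fell in P wounds of day 12 (log2 -2.96, edgeR adjusted p = 0.00129) and in PD wounds (-1.73, edgeR adjusted p = 0.0457, in 8 of 19 alternatives). Its relative Actn2, found in all fibre types, was at 0.16 in PD wounds and -0.82 in P wounds, not called.

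Of the 8 genes of calcium release and recovery, 3 fell in PD wounds and 2 in P wounds at day 2. At day 4, 3 fell and 1 rose in PD wounds and 6 fell in P wounds, and at day 12, 3 and 7 fell. Pvalb, the parvalbumin that buffers calcium in fast fibres, had 181, 344, 411, 547 and 843 CPM in PD wounds and 206, 304, 439.8, 582 and 673 CPM in P wounds at day 2. In unwounded skin the 3 libraries had 2659.9, 3282 and 3974 CPM. No wound of day 2 came near the unwounded range. Pvalb fell by 2.83 in PD wounds (SE 0.88, edgeR adjusted p = 0.0113) and by 2.91 in P wounds (SE 0.88, edgeR adjusted p = 0.00891) on the log2 scale. At day 12 it ran from 188 over a median of 1083 to 3331 CPM in PD wounds, overlapping unwounded skin and not called (log2 -1.40, edgeR adjusted p = 0.168). In P wounds it ran from 69.9 over 325 to 1256 CPM and was lower (log2 -2.83, SE 0.83, edgeR adjusted p = 0.00682). Casq1, the calcium store protein calsequestrin of fast fibres, fell at day 2 by 2.45 in PD wounds (SE 0.74, edgeR adjusted p = 0.00897) and by 2.55 in P wounds (SE 0.74, edgeR adjusted p = 0.0062). Both Pvalb and Casq1 kept the day 2 call in all 18 alternatives in PD wounds and all 18 in P wounds.

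Atp2a1, the pump that returns calcium to the store in fast fibres, had 2724, 5343, 5359, 6395 and 8883 CPM in PD wounds and 2859, 5139, 7597, 7859.7 and 8236 CPM in P wounds at day 2. Unwounded skin gave 17164, 22171 and 25742 CPM. Every wound lay well below unwounded skin. The change was log2 -1.92 in PD wounds (SE 0.76, edgeR adjusted p = 0.043, in 9 of 18 alternatives) and -1.78 in P wounds (SE 0.76, edgeR adjusted p = 0.0588). These values were not shown to differ between PD and P wounds. At day 12 Atp2a1 fell by 2.15 in PD wounds (edgeR adjusted p = 0.0159, lost without unwounded replicate 2) and by 3.22 in P wounds (edgeR adjusted p = 0.000686). Ryr1, the calcium release channel, was not called at day 2 (log2 -1.11 in PD wounds and -0.82 in P wounds). At day 12 it fell by 1.87 in PD wounds (edgeR adjusted p = 0.0131, lost without unwounded replicate 2) and by 2.87 in P wounds (edgeR adjusted p = 0.000359). Cacng1, the gamma subunit of the voltage sensor beside Ryr1, had 59.2 to 364 CPM with a median of 166 in PD wounds of day 4. The values in unwounded skin were 45.1, 49.5 and 56.2 CPM. All 6 of these wounds were above unwounded skin, and Cacng1 rose (log2 1.91, SE 0.73, edgeR adjusted p = 0.0324, in 12 of 19 alternatives). It was at 1.47 in PD wounds and 1.34 in P wounds at day 2, and at 0.87 in P wounds at day 4. At day 12 it was at 1.04 in PD wounds and -0.20 in P wounds. None of these were called. For Cacng1, PD and P wounds of day 4 were not shown to differ (edgeR adjusted p = 0.465).

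Of the 6 energy genes 2 fell in PD wounds and 1 in P wounds at day 2, 1 and 6 at day 4, and 2 and 5 at day 12. Ampd1, the AMP deaminase of working muscle, had 32.8, 79.4, 80.4, 91.0 and 173 CPM in PD wounds and 34.2, 38.8, 84.3, 109.9 and 119 CPM in P wounds at day 2. It was at 401, 446 and 683 CPM in unwounded skin. Wounds and unwounded skin were again fully apart. Ampd1 fell by 2.48 in PD wounds (SE 0.77, edgeR adjusted p = 0.0105) and by 2.73 in P wounds (SE 0.77, edgeR adjusted p = 0.00509) on the log2 scale. Ckm, muscle creatine kinase, was at -1.72 in PD wounds and -1.64 in P wounds at day 2, not called. It fell by 2.46 at day 4 (edgeR adjusted p = 0.0129) and by 2.99 at day 12 (edgeR adjusted p = 0.00202) in P wounds. Pygm, muscle glycogen phosphorylase, fell at day 12 in PD wounds (log2 -2.07, edgeR adjusted p = 0.0208, lost without unwounded replicate 2) and in P wounds (-3.20, edgeR adjusted p = 0.000829). Eno3, muscle enolase, fell in P wounds (-2.66, edgeR adjusted p = 0.00263), with -1.52 in PD wounds, not called.

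Mb, the oxygen store myoglobin, which is richer in oxidative fibres, was higher at day 12 than at day 4 in both PD and P wounds. It had 224 to 1448 CPM with a median of 742 in PD wounds of day 12, where day 2 had 115, 134, 159, 172 and 255 CPM. It had 138 to 982 CPM with a median of 319.9 in P wounds of day 12, where day 4 had 43.7, 98.2, 108, 126 and 339 CPM. All but the lowest PD wound of day 12 exceeded all PD wounds of day 2. Mb rose in PD wounds at day 12 over day 2 (log2 2.31, SE 0.56, edgeR adjusted p = 0.00161, in 21 of 21 alternatives) and over day 4 (1.69, edgeR adjusted p = 0.0111, in 22 of 22). In P wounds it rose over day 4 (1.64, edgeR adjusted p = 0.0268, in 14 of 21), and the difference from day 2 was not called (1.04, edgeR adjusted p = 0.118). Against unwounded skin at day 12 it was at 0.47 in PD wounds and -0.43 in P wounds, not called.

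The 8 genes of mass control and stress held every rise over unwounded skin except that of Cacng1. At day 2, 3 rose and 1 fell in both PD and P wounds. At day 4, 3 rose and 1 fell in PD wounds, and 1 rose and 2 fell in P wounds. At day 12, 2 rose and 2 fell in PD wounds, and 1 rose and 5 fell in P wounds. Ankrd1, Ankrd2 and Csrp3 encode proteins that sit at titin or the Z disc and are known to be induced by stretch, injury or denervation. Ankrd1 had 156, 162, 168, 304 and 406 CPM in PD wounds and 222, 227, 248, 304 and 345 CPM in P wounds at day 2. The unwounded libraries had 0.539, 0.734 and 3.29 CPM. The lowest wound library stood far above the highest unwounded one. Ankrd1 rose by log2 7.31 in PD wounds (SE 0.96, edgeR adjusted p = 7.23e-07) and 7.48 in P wounds (SE 0.97, edgeR adjusted p = 4.4e-07) at day 2. It rose by 6.75 in PD wounds and 5.77 in P wounds at day 4, and by 5.65 and 4.86 after 12 days. Ankrd1 kept these 6 calls under every alternative run. Within the wounds it was lower at day 12 than at day 2, by 1.66 in PD wounds (edgeR adjusted p = 0.0169) and by 2.62 in P wounds (edgeR adjusted p = 0.000407).

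Ankrd2 had 199.8, 247, 281, 323 and 467 CPM in PD wounds and 251, 311, 315, 408 and 476 CPM in P wounds at day 2. In unwounded skin the 3 libraries had 13.7, 23.4 and 28.8 CPM. It rose by log2 3.79 (SE 0.80, edgeR adjusted p = 0.000344) in PD wounds and 4.00 (SE 0.81, edgeR adjusted p = 0.000183) in P wounds. At day 12 it had 4.52 to 36.3 CPM in PD wounds and 3.86 to 21.5 CPM in P wounds, overlapping unwounded skin in both. Against day 2 it fell by 3.95 in PD wounds (SE 0.60, edgeR adjusted p = 7.8e-06) and by 4.89 in P wounds (SE 0.62, edgeR adjusted p = 4.7e-07). Csrp3, the muscle LIM protein, had 194, 359, 405, 494 and 653 CPM in PD wounds and 264, 269, 339.5, 440.3 and 504 CPM in P wounds at day 2. Unwounded skin gave 35.5, 63.2 and 71.5 CPM. All wounds of day 2 were above unwounded skin. Csrp3 rose by log2 2.89 in PD wounds (SE 0.75, edgeR adjusted p = 0.00271) and 2.68 in P wounds (SE 0.74, edgeR adjusted p = 0.00427). In PD wounds it was also higher at day 4 (2.34, edgeR adjusted p = 0.00823) and at day 12 (1.69, edgeR adjusted p = 0.0459, in 12 of 19 alternatives).

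Trim63 and Fbxo32 encode MuRF1 and atrogin-1, ubiquitin ligases of muscle wasting. Trim63 had 121, 131, 161, 379 and 407 CPM in PD wounds and 169.8, 234, 245, 272 and 464 CPM in P wounds at day 2. The values in unwounded skin were 69.3, 109.9 and 116 CPM. All 10 wounds of day 2 were above unwounded skin, but the difference, log2 1.29 in PD wounds and 1.49 in P wounds, was not called (edgeR adjusted p = 0.16 and 0.101). From day 2 to day 12 Trim63 fell by 2.27 in PD wounds (SE 0.58, edgeR adjusted p = 0.00279) and by 3.53 in P wounds (SE 0.61, edgeR adjusted p = 3.08e-05). Fbxo32 was not called at day 2 (log2 -0.56 in PD wounds and -0.15 in P wounds). At day 12 it fell by 1.59 in PD wounds (edgeR adjusted p = 0.0175, lost without unwounded replicate 1) and by 2.31 in P wounds (edgeR adjusted p = 0.000998).

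Mstn, the growth inhibitor myostatin, had 12.4, 18.5, 22.2, 29.5 and 40.1 CPM in PD wounds and 12.3, 17.6, 34.1, 39.1 and 51.7 CPM in P wounds at day 2. It was at 139.7, 176 and 223 CPM in unwounded skin. At day 12 it ran from 0.908 over a median of 8.62 to 29.9 CPM in PD wounds and from 0.218 over 4.22 to 11.8 CPM in P wounds. No wound library reached the unwounded range. On the log2 scale Mstn fell in PD wounds by 2.87, 2.69 and 4.00 at days 2, 4 and 12 (edgeR adjusted p = 0.0112, 0.00952 and 0.000474). In P wounds Mstn fell by 2.54, 3.26 and 5.35 (edgeR adjusted p = 0.0221, 0.00457 and 2.42e-05). Klhl41, which stabilises nebulin, was not called at day 2 (log2 -0.21 in PD wounds and -0.15 in P wounds). It fell in P wounds of day 12 (-1.53, edgeR adjusted p = 0.0243, in 16 of 19 alternatives).

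**Figure D4:**
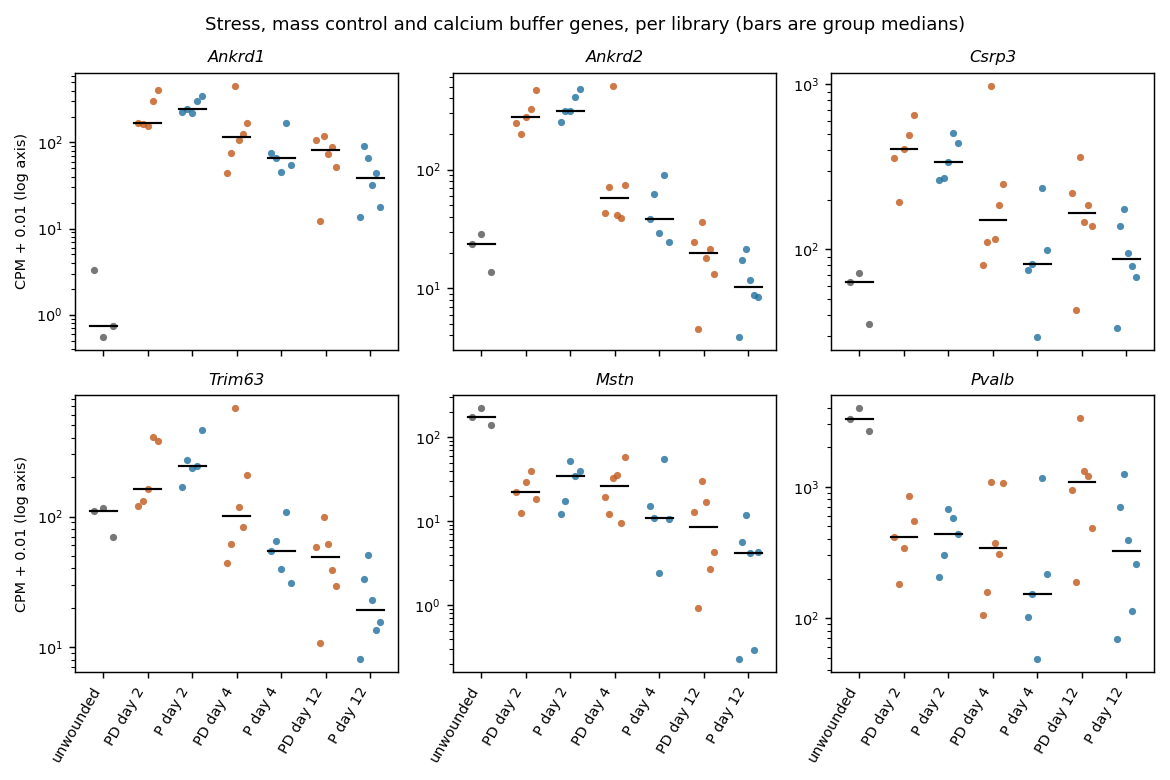
CPM plus 0.01 on a log axis for Ankrd1, Ankrd2, Csrp3, Trim63, Mstn and Pvalb (panels) in each of the 36 libraries, by group, with bars at group medians. Ankrd1, Ankrd2 and Csrp3 stand above unwounded skin in all wounds of day 2, Ankrd2 lies between 3.86 and 36.3 CPM at day 12, and Mstn lies below unwounded skin in every wound.

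The slow fibre genes were uneven between the unwounded libraries. Myh7, the slow heavy chain, had 0, 0.673 and 742 CPM there, the high value being in replicate 2. That library also had 229 CPM of Myl2, 98.5 of Myl3, 216 of Tnnt1, 116 of Tnni1 and 129 of Tnnc1, against at most 2.58 CPM of any of them in the other unwounded libraries. Comparisons of these 6 genes with unwounded skin therefore rest on that library: Myh7 was called lower in P wounds of day 12 at log2 -7.88 with it and was at 1.57, not called, without it (edgeR adjusted p = 0.583). Among wounds of day 2, Myh7 reached 162 CPM in PD replicate 2 and 239 CPM in P replicate 5, the others having at most 62.8 CPM, and at day 12 no wound exceeded 4.55 CPM.

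Within the wounds, Myh7 was called lower at day 12 than at day 2 (log2 -3.93 in PD wounds and -6.10 in P wounds, edgeR adjusted p = 0.0334 and 0.00312), while Tnni1 rose in both. The Myh7 ranges of these days overlapped, and the high libraries of day 2 weigh on the falls. The lowest day 2 library had 0.244 CPM in PD wounds and 0.139 CPM in P wounds. The lowest of day 12 had 1.195 and 0.635 CPM. Tnni1, slow troponin I, had 3.33, 4.45, 11.8, 17.8 and 25.9 CPM in PD wounds of day 2, 73.4 to 185 CPM with a median of 124 at day 4 and 62.2 to 261 CPM with a median of 177 at day 12. In P wounds it had 7.25, 10.6, 13.9, 15 and 49.5 CPM at day 2, then 15.4, 66.6, 85.9, 111 and 145 CPM at day 4 and 29.6 to 193 CPM with a median of 93.1 at day 12. In PD wounds days 4 and 12 lay wholly above day 2, whereas P wounds overlapped through P day 2 replicate 5 and through P day 4 replicate 3 and P day 12 replicate 1. Tnni1 rose in PD wounds at day 4 over day 2 (log2 3.25, SE 0.90, edgeR adjusted p = 0.0318, in 14 of 21 alternatives). It was the only member called in that comparison, in which 4.26% of all genes were (2.67% higher and 1.59% lower). Tnni1 also rose in PD wounds at day 12 over day 2 (3.78, SE 0.92, edgeR adjusted p = 0.00165, in 21 of 21). In P wounds it rose at day 12 over day 2 (2.44, SE 0.86, edgeR adjusted p = 0.0227, lost without P day 2 replicate 3 or 4). Tnnc1, slow and heart troponin C, rose in PD wounds at day 12 over day 2 (log2 3.13, SE 0.95, edgeR adjusted p = 0.0101). Against unwounded skin Tnni1 was not called at any day, but without unwounded replicate 2 it was higher in all 6 comparisons (highest edgeR adjusted p = 0.000375). The sizes were log2 5.6, 8.82 and 9.38 in PD wounds and 6.18, 8.34 and 8.65 in P wounds at days 2, 4 and 12, where the remaining unwounded libraries had 0.187 and 0.367 CPM.

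**Figure D5:**
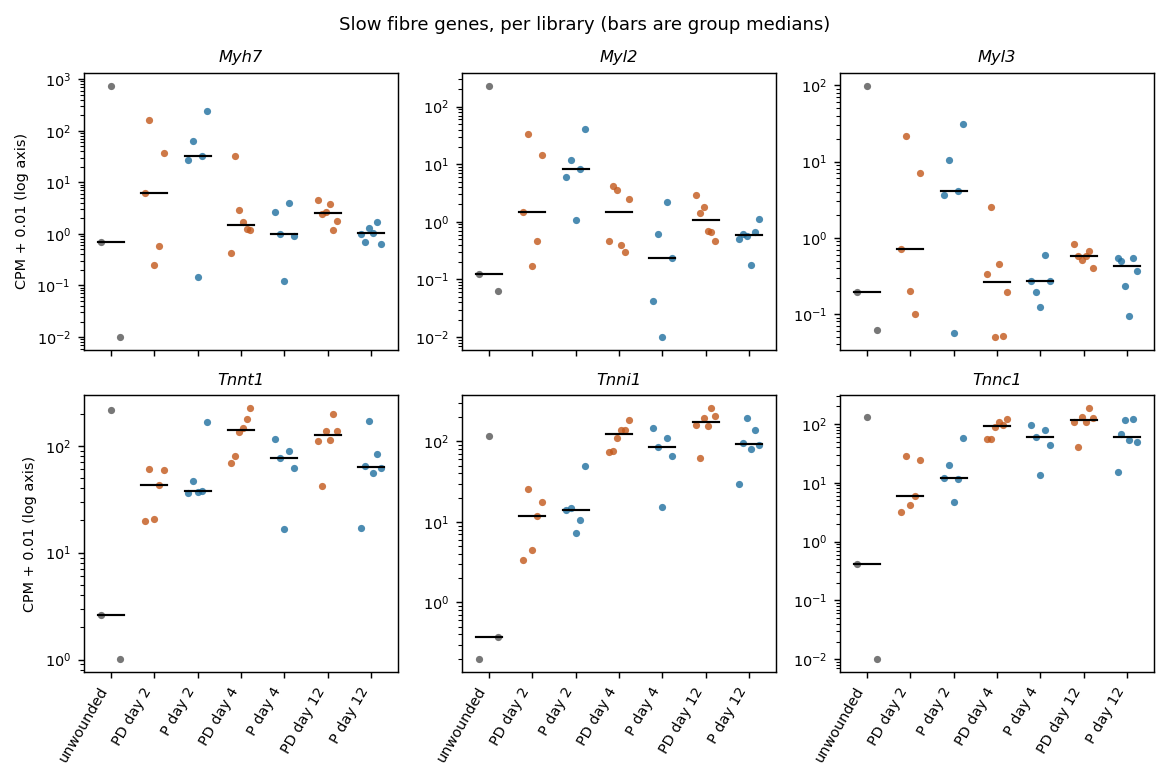
CPM plus 0.01 on a log axis for the slow fibre genes Myh7, Myl2, Myl3, Tnnt1, Tnni1 and Tnnc1 (panels) in each of the 36 libraries, by group, with bars at group medians. One unwounded library lies far above the other 2 in every panel, and the troponins Tnni1 and Tnnc1 are higher at days 4 and 12 than in most wounds of day 2 while Myh7 is not.

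Fast and slow members were set against each other as log2 ratios within a library and were not tested. Tnni2 exceeded Tnni1 by 4.58 to 8.38 in PD wounds and 5.32 to 8.16 in P wounds at day 2, and by 3.08 to 5.25 and 2.11 to 4.59 at day 4. The day 12 values were 1.77 to 4.09 and 0.91 to 3.08. All wounds of day 12 thus lay below all wounds of day 2, while at day 4 the PD wounds overlapped those of day 2 and the P wounds lay below the P wounds of day 2. The pair Tnnt3 to Tnnt1 ran from 4.38 to 6.94 in PD wounds and from 4.69 to 6.85 in P wounds at day 2, and from 3.39 to 5.70 and from 2.60 to 4.78 at day 12, which overlap. Over the 13 fast and 6 slow members summed, the ratio was 5.19 to 9.56 in PD wounds and 5.86 to 9.51 in P wounds at day 2, and 4.73 to 7.18 and 3.56 to 6.30 at day 12. In unwounded skin it was 6.0 in replicate 2 and 14.2 and 15.3 in the others.

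A regeneration list of 10 genes of newly formed fibres, among them Myh8 and the embryonic heavy chain Myh3, gives the setting of these shifts. Of the 10, 6 rose at day 2 in both PD and P wounds, 9 at day 4 in both, and 9 in PD wounds and 8 in P wounds at day 12, to be read against the shares of all genes called higher given above. At day 2, 1 of the 10 fell: Actc1, the cardiac actin made in developing muscle, was lower in PD wounds (log2 -3.55, edgeR adjusted p = 8.74e-05) and in P wounds (-2.99, edgeR adjusted p = 0.000447). Myh8 and Tnnt2 were then at -0.47 and -0.39 in PD wounds and at -0.68 and -0.35 in P wounds, not called. The sum over the regeneration list was 459.5 to 2680 CPM in PD wounds and 199 to 1746 CPM in P wounds at day 12, against 145 to 182 CPM in unwounded skin. A further list of 51 adult muscle genes that are no members, of which 50 were tested, was counted in the same way. At day 12, 15 fell and 3 rose in PD wounds and 33 fell and 0 rose in P wounds. Its median log2 changes were -1.0 and -1.85. Among its most abundant genes, Des, the desmin of intermediate filaments, was at -0.31 in PD wounds and -1.33 in P wounds, not called.

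Between day 2 and day 12 within the wounds, 4 members rose and 5 fell in PD wounds, where 37.3% of all genes were called (18.6% higher and 18.7% lower). In P wounds, 1 rose and 27 fell over these days, against 41% of all genes (20.4% and 20.5%). From day 2 to day 4 none rose and 5 fell in P wounds, against 8.45% of all genes (5.76% and 2.7%). These 5 were Myh7, Myl2, Myl3, Ankrd2 and Trim63. Myh7, Myl2 and Myl3 were uneven between the P wounds of day 2, and for each of them the ranges of days 2 and 4 overlapped. From day 4 to day 12, 1 rose and 3 fell in PD wounds, against 31.3% of all genes (15.7% and 15.6%). In P wounds, 1 rose and 2 fell, against 23.8% (11.2% and 12.6%). Mb was the riser in both. Ankrd2, Trim63 and Fbxo32 fell in PD wounds, Trim63 and Fbxo32 not without PD day 4 replicate 3 (log2 -1.03 and -0.69), and Ankrd2 and Mstn fell in P wounds, Mstn in 9 of 21 alternatives only.

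PD and P wounds were then compared directly at each day. No member was called at day 2, 4 or 12 or over the mean of the days, and 0% of all genes were called by edgeR. At an unadjusted p under 0.05 the members numbered 0 at day 2, 4 at day 4, 18 at day 12 and 7 over the mean, all of them higher in PD wounds. Over all genes these counts were 793, 2369, 1022 and 2488 of 20657. DESeq2 and limma-voom called no member either. Over all genes DESeq2 called 7 higher and 17 lower at day 2 and 12 higher and 172 lower at day 4, and limma-voom 981 higher and 1093 lower at day 4. At days 2, 4 and 12 the members' median log2 difference, PD minus P, came to -0.12, 0.82 and 1.13, and 13, 53 and 53 of the 53 were above 0. The members vary together from library to library, so these signs are not 53 separate results. The share of all genes above 0 is not given. For Acta1 at day 12 the values above give the size: a median of 8055 CPM in PD wounds and 3159 CPM in P wounds, with ranges that overlap. Jph1, which holds the reticulum to the cell membrane, had the smallest unadjusted p at day 12 (0.0173, edgeR adjusted p = 0.884), and Trim63 at day 4 (0.00637, edgeR adjusted p = 0.351). All 53 members overlapped between PD and P wounds at each day. Whether the wounds' change over time differed between PD and P was tested as an interaction. edgeR called no member between days 2 and 4 or between days 4 and 12, with 2 members and 0 members at an unadjusted p under 0.05. limma-voom called Trim63 and Fbxo32 between days 2 and 4, with a difference of log2 2.01 and 1.85 in the change, PD minus P, and DESeq2 none. The share of all genes limma-voom called there is not given. From day 2 to day 4 in PD wounds edgeR gave log2 -0.27 for Trim63 and 0.44 for Fbxo32, neither called, while Trim63 fell in P wounds. PD day 4 replicate 3 was the high library for both genes.

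The members varied together from library to library. The SD within groups, pooled over the 7 groups, was 1.04 on the log2 CPM scale for the median member, and 0.25 once each member was taken relative to the other members of its library, smaller for 50 of the 53. In P wounds of day 4 the spread is largely replicate 4, with 7.67% of its counts on the members, and in PD wounds of day 4 replicates 3 and 6, with 10.6% and 9.42%.

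The members were also placed relative to the median member, a scale added after the values were seen. At day 2 Ankrd1 was at log2 8.41 in PD wounds and 8.59 in P wounds against unwounded skin, Ankrd2 at 5.03 and 5.17, Csrp3 at 4.07 and 3.82, Trim63 at 2.38 and 2.60 and Pvalb at -1.77 and -1.90. At day 12 Tnni1 was at 4.22 in PD wounds and 4.59 in P wounds, Tnnc1 at 3.46 and 3.90, Mb at 2.03 and 2.09 and Myh1 at 1.74 and 1.70. Ankrd1 was then at 6.96 in PD wounds and 7.44 in P wounds, Csrp3 at 3.13 and 3.49, Tnnt1 at 2.78 and 3.05 and Cacng1 at 2.34 and 2.31. The members furthest below the median member were Myh7 at -4.21 in PD wounds and -4.32 in P wounds, Myl2 at -3.50 and -3.48 and Myl3 at -3.48 and -2.77. These and the slow troponin values rest on unwounded replicate 2. Mstn was at -3.0 and -3.20, Myh4 at -1.40 and -1.67, Ampd1 at -1.01 and -1.11, Atp2a1 at -0.97 and -1.06 and Pygm at -0.91 and -1.03. On this scale, which follows the muscle content of a library, 12.5% to 88.9% of all genes were called against unwounded skin. Calls against unwounded skin are therefore not read as results from it. Between PD and P wounds no member was called on it.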

How the data were processed

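Per the labels' protocols, total RNA was taken with TRIzol, 500 ng per sample went into TruSeq Stranded mRNA libraries, and these were sequenced on an Illumina NovaSeq. The deposited files hold whole-number read counts per gene, which per the submitters' processing notes were made with Trimmomatic, HISAT2 2.1.0, SAMtools 1.9 and HTSeq on GRCm39; the strand setting and annotation release are not given in the sources used here. Of the 55414 gene IDs, 98.8% were in the GRCm39 annotation used for names, lengths and positions. Myh1, Myh2 and Myh4 overlap antisense genes, as does Ankrd1.

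Library totals ran from 11.8 to 58.4 M counts with a median of 30.4 M, and no replicate pair was close to sampling noise. The 3 counts over a group that a 0 allows are 0.0164 to 0.0280 CPM; this covers counting error only. Counts of all 36 libraries were fitted with edgeR 4.0.16 (R 4.3.3): TMM scaling, filterByExpr with a minimum of 10 counts, robust quasi-likelihood tests, 1 coefficient per group, and Benjamini-Hochberg adjustment over all 20657 genes, tested on simulated data. Log2 changes are from this fit and CPM are scaled by TMM. Alternatives were other scalings and filters, the replicate number as a block, a fit of the compared groups alone, DESeq2 1.42.0, limma-voom (limma 3.58.1) with sample weights, and leaving out each library. Genes named were the 3 most abundant of each role, the extremes of each comparison, fast and slow partners and the most abundant of the other lists. Members and lists were chosen with earlier results of these data known. Promoter windows were read from GRCm39. Strain, age and sex are not given in the sources used here.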

Additional observations from a re-analysis of the deposited data

Results flagged for a closer look

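Single libraries stood far from their group in 53 of the 330 combinations of gene or summed measure and group that were examined, 16.1%, where chance alone flags about 1 in 20. All values below are CPM, and since the members vary together most of these are 1 event seen in many genes.

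Replicate 4 of the P wounds at day 4 was the high library in 34 of them, with members summing to 87990 CPM against 9767 to 26650 CPM in the others of its group. In the thick filament it had 9708 for Myh4, 1026 for Mybpc1, 2107 for Mybpc2, 468.8 for Myom1 and 617.3 for Myom2, and among light chains 2714 for Mylpf and 2.192 for Myl2. In the thin filament it had 13790 for Acta1, 5370 for Tnnt3, 2671 for Tnni2, 2554 for Tnnc2, 4481 for Tpm2 and 1030 for Neb. In titin and the Z disc it had 2517 for Ttn, 2898 for Actn3, 568.9 for Myoz1, 321.5 for Myot, 690.7 for Tcap and 713.5 for Xirp2. Among calcium genes it had 1163 for Pvalb, 9736 for Atp2a1, 940.1 for Casq1, 539.7 for Cacna1s, 87.44 for Jph1 and 305.6 for Trdn, and among energy genes 5150 for Ckm, 338.7 for Mb, 2063 for Eno3, 573.3 for Pgam2 and 2163 for Pygm. It also had 55.37 for Mstn, 168.5 for Ankrd1 and 185.6 for Smpx.

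Replicate 3 of the PD wounds at day 4 was the high library for stress and wasting genes. It had 509.9 for Ankrd2 against 39.0 to 73.8 in the others, 455.6 for Ankrd1, 977.3 for Csrp3, 680.3 for Trim63, 566.6 for Fbxo32, 1116 for Xirp2 and 480.8 for Lmod2. Replicate 5 of the P wounds at day 2 was high in slow fibre genes, with 238.5 for Myh7, 41.64 for Myl2, 168.2 for Tnnt1, 49.51 for Tnni1 and 58.35 for Tnnc1. In PD wounds, replicate 2 was high for Myh7 at day 2 (161.9) and day 4 (32.77) and for Myl3 at day 4 (2.529). Replicate 4 was high for Myh2 at day 2 (749.9), and replicate 3 at day 12 for Myh2 (1356) and Pvalb (3331). In P wounds of day 12, replicate 3 was high for Tcap (642.9).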

How the results depend on the processing

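The call of Ankrd1 in all 6 comparisons with unwounded skin, and those of Ankrd2, Csrp3, Pvalb, Casq1 and Ampd1 at day 2, held under all alternatives run. Over all members, comparisons and alternatives, 20703 gene values kept direction and side of the threshold, 422 lost a call, 401 gained one and 43 changed sign; for no result was the cause of a change tested. Scaling without a composition factor moved the median of all genes by 0.24 in PD wounds and 0.27 in P wounds at day 12 (log2, against unwounded skin), and by 0.14 in PD wounds at day 2.

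Counts of members against unwounded skin moved as follows. Apart from the scaling to the median member, the shares of all genes called are not given for these alternatives, between days or under the block. With limma-voom, members rising at days 2, 4 and 12 numbered 6, 7 and 5 in PD wounds and 12, 5 and 4 in P wounds. Members falling numbered 31, 26 and 34 in PD wounds and 19 in P wounds at day 2. With only the groups compared, 5 rose and 27 fell in PD wounds and 5 rose and 26 fell in P wounds at day 2. DESeq2 found 9 falls in P wounds of day 2. With no filter, 1 rose and 10 fell in PD wounds of day 12 and 21 fell in P wounds of day 4. Scaled to the median member, 6, 7 and 9 rose and 1, 1 and 4 fell in PD wounds, and 6, 12 and 12 rose and 3, 6 and 7 fell in P wounds, at days 2, 4 and 12. These last counts are listed only to show the dependence on scaling, since the share of all genes called on that scale varied widely.

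Between days, PD wounds of day 4 over day 2 had 0 rises with no filter, 3 with only the groups compared, 2 with DESeq2, 3 with limma-voom and 0 relative to the median member, and 1 fall with limma-voom. PD wounds of day 12 over day 4 had 2 rises without a composition factor, 2 with DESeq2 and 3 relative to the median member, and 1 fall with only the groups compared and 1 relative to the median member. PD wounds of day 12 over day 2 had 3 falls with no filter and 2 relative to the median member. P wounds of day 4 over day 2 had 2 rises with limma-voom and 1 relative to the median member, and 2 falls with no filter, 32 with limma-voom and 1 relative to the median member. P wounds of day 12 over day 4 had 0 rises with only the groups compared, and 1 fall without a composition factor, 1 with no filter, 1 with only the groups compared, 14 with limma-voom and 0 relative to the median member. P wounds of day 12 over day 2 had 2 rises without a composition factor, 2 with limma-voom and 8 relative to the median member, and 45 falls with limma-voom and 8 relative to the median member. In the interaction of days 2 and 4, limma-voom called 2 members, both with a positive difference, PD minus P, in the change.

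The replicate numbers were not shown to pair the libraries: over 16 pairs of equal number, correlations of the deviations ran from -0.25 to 0.54, and 12 were above 0.1, with 6 libraries closest to their own number. With the replicate number as a block, 17, 14 and 27 members fell and 1 rose (day 12) in PD wounds at days 2, 4 and 12. In P wounds, 14, 38 and 43 fell. Under the block, 3 fell in PD wounds of day 12 over day 2, 30 fell in P wounds of day 12 over day 2, and 0 were called between PD and P wounds.

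Leaving out 1 library at a time, members rising against unwounded skin numbered 3 to 9, 3 to 6 and 1 to 4 in PD wounds and 3 to 9, 1 to 4 and 1 to 4 in P wounds at days 2, 4 and 12. Members falling numbered 4 to 9, 2 to 16 and 2 to 26 in PD wounds and 3 to 5, 8 to 40 and 30 to 43 in P wounds, at days 2, 4 and 12. The highest counts in PD wounds were without PD day 4 replicate 3 (16) and PD day 12 replicate 3 (26). Counts over all genes moved too. At these days 2619 to 3639, 3291 to 4496 and 2768 to 4283 of all genes fell in PD wounds. In P wounds 2956 to 3700, 2689 to 4058 and 2839 to 4177 fell. Between days, PD wounds had 0 to 1 rises and 0 to 1 falls from day 2 to 4, 1 to 2 and 1 to 3 from day 4 to 12, and 3 to 4 and 3 to 6 from day 2 to 12. P wounds had 0 rises and 1 to 9 falls, 0 to 1 and 1 to 5, and 0 to 2 and 17 to 38. There were 9 falls without P day 4 replicate 4 and 17 without P day 12 replicate 5. Between PD and P wounds no member was called.

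The sign changes all concern slow fibre genes against unwounded skin. Without unwounded replicate 2, log2 values in PD wounds were 6.88, 4.26 and 2.95 for Myh7, 6.86, 4.44 and 3.96 for Myl2 and 5.59, 2.31 and 2.23 for Myl3 at days 2, 4 and 12. At day 2 they were 4.55 for Tnnt1, 5.6 for Tnni1 and 5.90 for Tnnc1. In P wounds they were 7.65, 2.23 and 1.57 for Myh7, 7.28, 2.69 and 2.81 for Myl2 and 6.26, 1.08 and 1.59 for Myl3. Tnnt1 was at 5.19 and 5.36 at days 2 and 4, and day 2 gave 6.18 for Tnni1 and 6.54 for Tnnc1 at day 2. With limma-voom, PD wounds gave 3.07 for Tnnt1, 4.03 for Tnni1 and 3.68 for Tnnc1 at day 2, 1.30 for Myh7 and 1.77 for Myl2 at day 4, and 1.52 for Myh7, 1.92 for Myl2 and 0.76 for Myl3 at day 12. P wounds gave 4.75 for Myh7, 5.24 for Myl2, 3.57 for Myl3, 4.08 for Tnnt1, 5.35 for Tnni1 and 5.09 for Tnnc1 at day 2, 0.82 for Myh7 and 4.58 for Tnnt1 at day 4, and 0.28 for Myh7 and 1.17 for Myl2 at day 12. Leaving out 1 library, the other end of these genes' ranges in PD wounds was -4.48, -7.34 and -7.01 for Myh7, -4.21, -5.86 and -6.33 for Myl2 and -4.03, -7.21 and -6.30 for Myl3 at days 2, 4 and 12. At day 2 it was -1.34 for Tnnt1, -2.12 for Tnni1 and -2.21 for Tnnc1. In P wounds it was -3.01, -7.73 and -8.38 for Myh7, -3.50, -8.27 and -7.49 for Myl2 and -2.85, -7.46 and -6.95 for Myl3. Tnnt1 was at -0.90 and -0.53 at days 2 and 4, and day 2 gave -1.73 for Tnni1 and -1.85 for Tnnc1.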
